A study of Mus musculus with 5 samples.

Results

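Transcripts of 8 genes, C3, C4b, C1s1, C1ra, Cfb, Serping1, Lcn2 and Saa3, were examined in cells of the mouse temporomandibular joint (TMJ) disc, the fibrocartilage plate between the jaw bone and the skull. They were taken by symbol from the 27998 genes of the count files. They were selected on measured values, the stromal ratios of the 78 w to the 3 d library, in which Lcn2 and C3 were among the highest, so that this contrast is a description and supports nothing further. Each of 5 conditions had 1 single-cell library, all from WT mice of the strain C57BL/6. Untreated discs came from mice aged 3 d or 3, 16 or 78 w. Injured discs came from 7-week-old mice, whose disc had been injured at its front band with a needle at 5 weeks of age (pinched, per the sample labels) and was collected 2 weeks later. No uninjured library of that age was analysed here, so the injured library is set beside both the 3 w and the 16 w libraries. The number of animals behind a library was not given in the sources used here. Since each condition has a single library, nothing could be tested, and the intervals given are 95% intervals for counting error only.

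Complement is a cascade of plasma proteins that tags microbes and damaged cells for removal. In the classical pathway the recognition molecule C1q carries the proteases C1r and C1s, which cleave C4 and C2, and the resulting enzyme cleaves C3, where all pathways meet. Factor B, encoded by Cfb, forms the C3-cleaving enzyme of the alternative pathway, and C1 inhibitor, encoded by Serping1, blocks C1r and C1s. Liver makes most plasma complement, but fibroblasts, macrophages and cartilage cells also transcribe these genes. Lcn2 encodes lipocalin 2, which binds bacterial iron carriers, and Saa3 encodes a serum amyloid A protein made at sites of inflammation. Both are acute-phase genes, and chondrocytes are known to make lipocalin 2.

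In GRCm38, the build of the reference annotation, Lcn2 lies on the minus strand at chr2:32384633-32388252, Serping1 on the minus strand at chr2:84765387-84775444 and Saa3 on the minus strand at chr7:46711998-46715700. C4b (chr17:34728380-34743882), Cfb (chr17:34856374-34862518) and C3 (chr17:57203970-57228136) are all on the minus strand of chromosome 17. C1ra (chr6:124512405-124523443, plus strand) and C1s1 (chr6:124530345-124542359, minus strand) are neighbours on opposite strands, 6902 bases apart. All 8 are protein-coding. The libraries read the 3′ end of transcripts, and part of some transcript ends is shared with a near-identical copy: 20.2% of the 90-base windows in the last 500 bases of C4b also occur in C4a, 11.2% of those of C1ra occur in C1rb and 2.68% of those of C1s1 in C1s2. C4a was not analysed here, and C4b values are uncertain to the extent that reads of the pair could be assigned to either. Cfb shared no such window with C2, nor Saa3 with Saa1 or Saa2.

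Promoters from RefSeq, on the assembly GRCm38.p6, were at hand for 5 of the 8 genes (Lcn2, C3, Saa3, C1ra and C1s1) and span 250 bases before and 50 bases after the start site. They are shown for Lcn2, C3 and Saa3, the genes with the largest ratios between the 3 d and 78 w stroma, 5′ to 3′ on the minus strand. Capitals mark a match to TTGCNNAA, a short form of the motif of C/EBP factors, which take part in acute-phase transcription.
Lcn2, chr2:32387690-32387989: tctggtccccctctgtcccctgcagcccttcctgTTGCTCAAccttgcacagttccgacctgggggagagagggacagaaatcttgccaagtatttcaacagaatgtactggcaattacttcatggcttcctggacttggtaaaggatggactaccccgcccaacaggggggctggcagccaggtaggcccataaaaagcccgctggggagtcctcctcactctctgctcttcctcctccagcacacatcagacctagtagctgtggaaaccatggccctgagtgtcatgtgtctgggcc
C3, chr17:57228087-57228386: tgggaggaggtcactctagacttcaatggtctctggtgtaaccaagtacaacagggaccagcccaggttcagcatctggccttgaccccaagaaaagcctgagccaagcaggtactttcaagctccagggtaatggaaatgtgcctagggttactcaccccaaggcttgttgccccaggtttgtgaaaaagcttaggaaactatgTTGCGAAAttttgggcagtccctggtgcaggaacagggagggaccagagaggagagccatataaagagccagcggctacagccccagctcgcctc
Saa3, chr7:46715627-46715926: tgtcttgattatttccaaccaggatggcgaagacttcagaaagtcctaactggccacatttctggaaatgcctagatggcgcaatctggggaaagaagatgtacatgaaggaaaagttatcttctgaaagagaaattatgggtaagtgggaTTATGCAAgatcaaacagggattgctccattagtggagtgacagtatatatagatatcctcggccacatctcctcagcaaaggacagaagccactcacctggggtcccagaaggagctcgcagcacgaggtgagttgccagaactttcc
The motif was chosen after these sequences had been seen and was searched on both strands. It stood 216 bases before the start site in Lcn2, 99 in Saa3, 45 in C3 and 242 for 1 of the 2 annotated starts of C1s1. In C1ra it stood 16 bases past the start. Among all 32851 promoters of this length 10.8% held a match. TATAAA, present in 13.6% of all promoters, occurred in C3, and an interferon-stimulated response element, present in 3.44%, matched in Saa3, while a consensus of NF-kB, present in 8.46%, had no match in these 5 genes. No binding was measured, and a match describes letters only.

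The 5 libraries held 31585993 to 125427849 UMIs (unique molecular identifiers, 1 per captured transcript) over 8467 to 15169 barcodes, and the injured library was the shallowest, with a median of 3299 UMIs per retained cell against 7721 to 12496 in the others. Any pair of libraries shared 19 to 39 barcodes. The injured library held 0 UMIs of the Y-linked genes Ddx3y, Eif2s3y and Kdm5d and 644 CPM of Xist, whereas the untreated libraries from 3 w on held at most 0.337 CPM of Xist, so that sex and injury cannot be told apart. The 3 d library held both. Cells were clustered without the complement and acute-phase genes and the clusters named from markers. The stroma is the cells of 3 clusters, 10738 cells at 3 d, 7924 at 3 w, 7672 at 16 w, 8350 at 78 w and 6841 in the injured library. A marker counted for a stromal cluster when at least 2-fold over the 25th percentile of the other clusters, which need not make it highest there. Cluster 1 was chondrogenic-like, with all 7 of its markers such as Chad, Comp and Col2a1 counted. Cluster 2 was tendon-like, with all 6 of its markers such as Tnmd and Kera, and cluster 3 adventitial-type-like, with all 7 of its markers such as Pi16 and Clec3b. Cluster 1 made up 18.5% of the stroma at 3 d and 61.7% to 68.5% in the other libraries, and cluster 3 made up 40.3% at 3 d and 8.28% to 12.1% in the others. Pooled stromal values therefore carry a change in cell mixture beside any change within a cluster, and both are given. Values within a cluster can carry such a change too, since integration matched the ages. Without it, a stromal cluster with 9898 cells at 3 d held 0 at 3 w, 16 w and 78 w. In a finer division, a subcluster led by Col2a1 held 67 cells at 3 d and 1070 at 78 w.

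Most of these genes were scarcely detected in the stroma of newborn discs and were highest at 78 w. Levels are in CPM, the UMIs of a gene per 1000000 UMIs of all stromal cells of a library. C3, the protein on which all complement pathways converge, stood at 0.299 CPM (0.202–0.427) at 3 d, 16.6 (15.9–17.4) at 3 w, 83.7 (81.7–85.8) at 16 w, 205 (202–208) at 78 w and 26.7 (24.9–28.7) in the injured library. Lcn2 stood at 0.319 CPM (0.218–0.451), 140 (138–143), 187 (184–190), 490 (486–495) and 58.8 (56.0–61.8) in the same order. Both genes were thus higher at each later stage, and in both the injured library lay far below the 78 w library. C4b, whose product C4 is cleaved by C1s, was the most abundant of the 8 at 78 w, with 680 CPM (675–686), after 8.78 (8.21–9.38) at 3 d, 64.9 (63.4–66.4) at 3 w and 354 (350–358) at 16 w, and 56.2 (53.4–59.0) in the injured library. Since 3′ counts depend little on transcript length, these CPM compare genes by transcripts captured and not by length.

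The proteases of C1 were transcribed at a lower level. C1s1 stood at 3.37 CPM at 3 d, 7.88 at 3 w, 18.6 at 16 w, 40.5 at 78 w and 8.86 in the injured library. C1ra stood at 3.73, 22.1, 24.6, 42.1 and 14.5 CPM. The pair had similar levels at 3 d and at 78 w and differed most at 3 w, where C1ra was well above C1s1. Serping1, whose product inhibits both, was abundant from the start, with 77.0 CPM at 3 d, 277 at 3 w, 388 at 16 w, 397 (393–401) at 78 w and 156 (152–161) in the injured library, and its 16 w and 78 w levels were nearly equal. Cfb was the rarest of the 8 in every library but that of 3 d, with 0.708 CPM (0.553–0.893) at 3 d, 0.399 (0.291–0.533) at 3 w, 1.11 (0.893–1.37) at 16 w, 3.25 (2.89–3.64) at 78 w and 2.15 (1.64–2.77) in the injured library. In the pooled stroma it was the only one of the 8 whose 3 w level lay below its 3 d level. In cluster 3 alone it was higher at 3 w, at 3.94 CPM (2.75–5.48) against 1.22 (0.922–1.58) at 3 d.

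**Figure D1:**
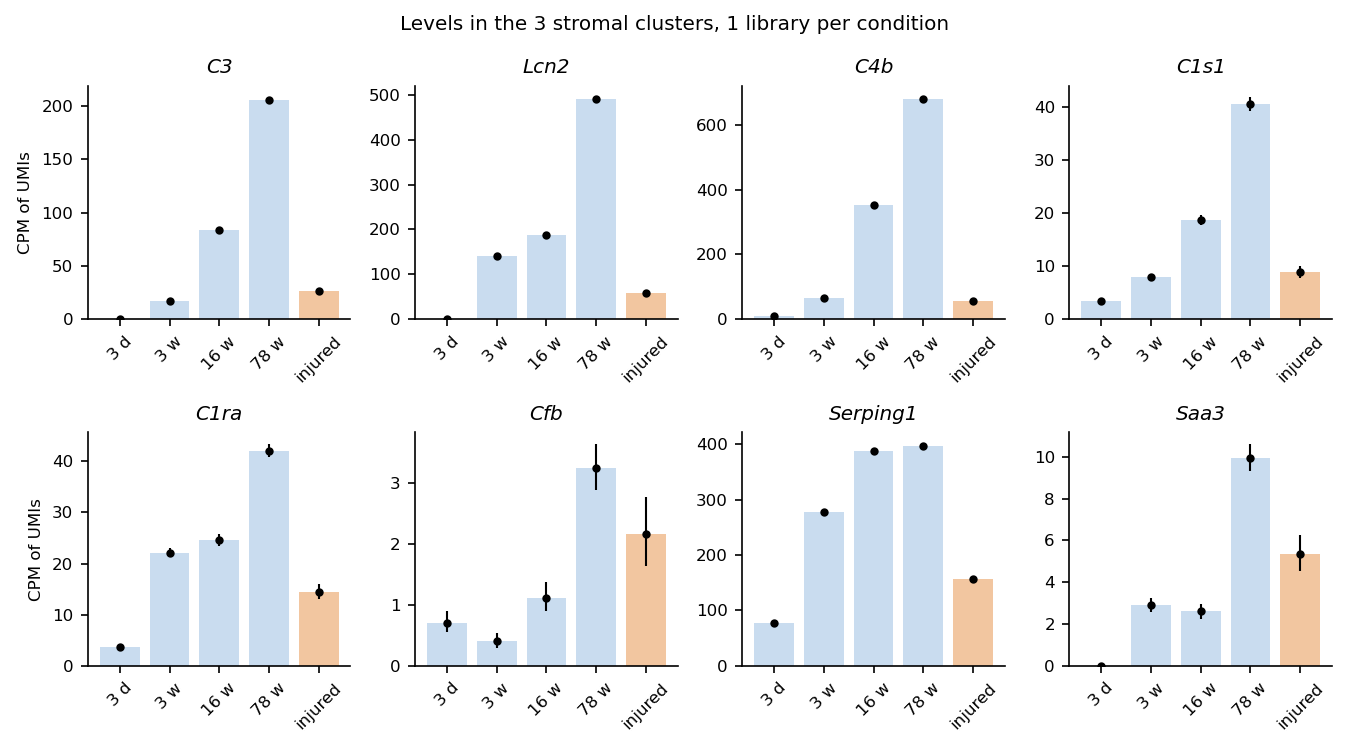
Level of each gene in the 3 stromal clusters together, as CPM of UMIs (vertical axis, linear from 0), in 1 library per condition, with 4 untreated stages in blue and the injured library in orange. Bars and points mark the value and lines its 95% counting interval, and the 78 w bar is the highest for all 8 genes.

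Saa3 needs a closer look, since its UMIs came from few cells. No UMI was found in 10738 stromal cells at 3 d, and the levels at 3 w, 16 w, 78 w and in the injured library were 2.90 (2.59–3.23), 2.60 (2.26–2.98), 9.96 (9.32–10.6) and 5.34 CPM (4.52–6.27). These rested on 24, 29, 28 and 35 cells, respectively. At 78 w a single cell held 477 of the 904 UMIs, or 52.8%, and without the richest cell of each library the levels were 2.26 CPM at 3 w, 1.56 at 16 w, 4.70 at 78 w and 4.27 in the injured library. The 78 w level is therefore no measure of the stroma at large. Lcn2 was far more widely spread: its UMIs at 78 w came from 3571 stromal cells, the richest with 316, and 1199 cells held at least 10 UMIs.

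Shares of cells showed the same order once depth had been made equal. After each cell was thinned to 1000 UMIs, which left out 8 to 51 shallower stromal cells in the untreated libraries and 326 in the injured one, a UMI of C4b was found in 0.795% of stromal cells at 3 d, 5.27% at 3 w, 21.1% at 16 w, 37.1% (36.1–38.1, Clopper-Pearson) at 78 w and 5.20% in the injured library. For Lcn2 the shares were 0.0468%, 7.47%, 8.15%, 18.6% (17.7–19.4) and 3.59%, against 0.27%, 24.9%, 25.5%, 42.8% and 9.82% without thinning. For C3 they were 0.0468%, 1.33%, 5.48%, 14.3% (13.5–15.0) and 2.52%. In endothelial cells, where stromal genes were also counted, thinned shares at 78 w were 6.18% for C4b, 6.80% for Lcn2 and 2.16% for C3, all below the stromal shares. The 78 w levels of Lcn2 and C3 in that class stood above the gauge of free RNA given below. Median depths were 4856 UMIs in endothelial and 9803 in stromal cells before thinning. Serping1 behaved differently: 6.89%, 20.1%, 23.4%, 20.1% and 13.5% of stromal cells held it. Its pooled share thus stayed between 20.1% and 23.4% in the untreated libraries from 3 w on. The stromal clusters differed in direction over those libraries. In order of age, the thinned share of Serping1 fell in cluster 1 (10.4%, 8.60%, 6.28%), where the part of free RNA was not tested. Both older libraries stood above the 3 w library in cluster 2 (27.9%, 37.4%, 34.3%) and cluster 3 (62.9%, 82.5%, 80.8%).

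The classes of cells that led for each gene were not the same. Clusters were also named endothelial, mural, macrophage and synovial lining, each to be read as "-like". The stroma was the highest class for 1 of the 8 genes at 3 d, 3 at 3 w and 4 at 16 w. It was so for 4 at 78 w and 3 in the injured library. No share over all genes is set beside these counts, so they are not read as more or less than usual. C3, C4b and Lcn2 were highest in the stroma at 3 w, 16 w and 78 w, at 78 w by 4.00-fold, 3.12-fold and 3.68-fold over the next class. At 3 d the macrophage class led for Lcn2 with 20.4 CPM (16.2–25.3, from 82 UMIs), for C3 with 3.48 (1.90–5.84), for Saa3 with 7.96 and for Cfb with 3.23. The Lcn2 UMIs came from 12 of 365 cells of that class and the Saa3 UMIs from 3. The 9 neutrophil markers summed to 877 CPM in the class at 3 d, 8.62 at 3 w, 265 at 16 w, 196 at 78 w and 4.70 in the injured library (at 3 d with Mpo and Elane at 0), and the part of neutrophil RNA in these values was not tested. At 78 w the stroma stood above the class for Lcn2, C3 and Saa3, the last with 1 cell holding most of its stromal UMIs.

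Against the stroma as a whole, C1s1 was highest in mural cells, the contractile cells that wrap small vessels. Its level there was 46.3 CPM (39.1–54.5) at 3 d, 183 at 3 w, 215 at 16 w, 245 (224–268) at 78 w and 196 (150–251) in the injured library, 6.06-fold to 17.7-fold above the next class in the same library. C1ra was likewise highest in the mural class in every library, at 55.9 CPM (47.4–65.5) at 3 w and 51.3 (41.8–62.2) at 78 w, but its intervals overlapped those of the stroma at 78 w and of the synovial lining in the injured library. These orders hold for the pooled stroma only. Stromal cluster 3 alone stood above the mural class at 78 w for C1s1, at 284 CPM (273–295), and from 3 w on for C1ra, at 115 CPM at 3 w, 171 at 16 w, 234 at 78 w and 37.4 in the injured library, where the intervals overlapped. Serping1 was the highest in the synovial lining among the 5 classes from 3 w on, with 664 CPM (617–713) at 3 w, 1012 at 16 w, 1310 (1279–1341) at 78 w and 360 (320–404) in the injured library, and at 3 d it was highest in mural cells, at 196 CPM. In the injured library its synovial lining and mural levels overlapped, and stromal cluster 3 alone stood above the synovial lining from 3 w on, at 1308, 2362, 2388 and 456 CPM. Cfb was the highest in endothelial cells among the 5 classes at 16 w (6.14 CPM, from 24 UMIs) and 78 w (7.04, from 28 UMIs). In both libraries stromal cluster 3 alone stood above that class for Cfb, at 13.5 CPM at 16 w and 26.5 at 78 w, with no overlap of intervals.

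**Figure D2:**
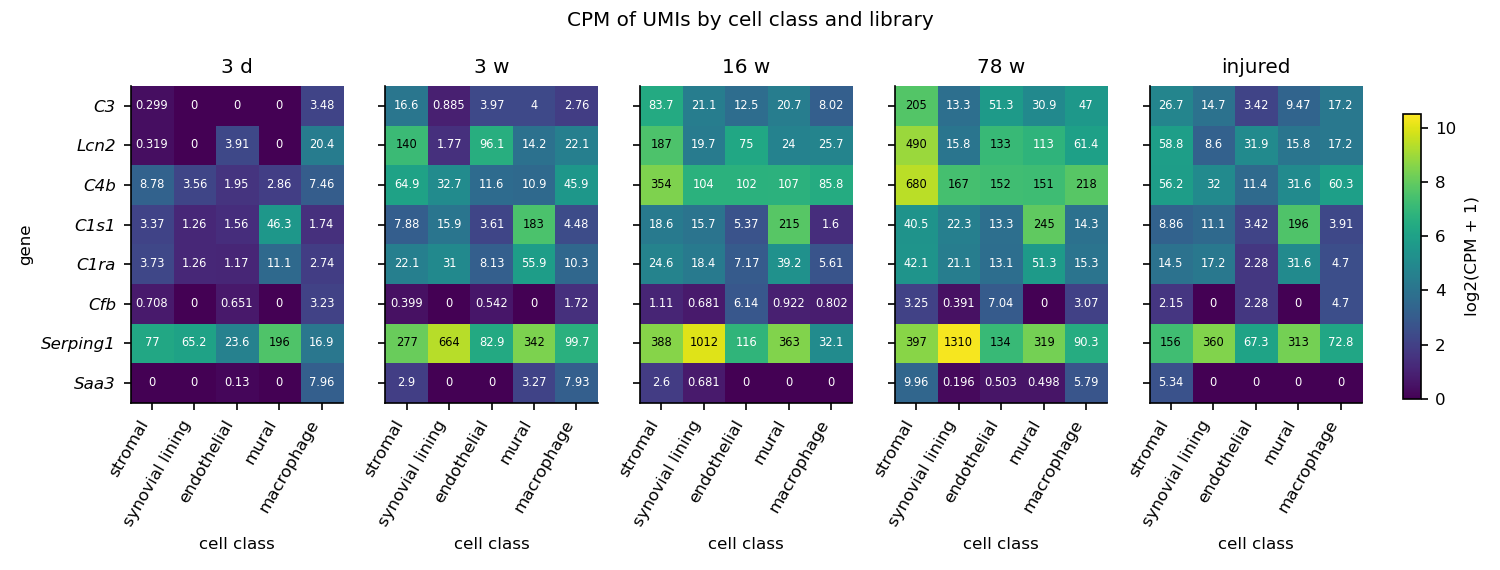
CPM of UMIs of the 8 genes (rows) in 5 classes of cells (columns) in each library, with the value printed in each cell and the colour on a log2(CPM + 1) scale. At 78 w Serping1 is highest in the synovial lining (1310), C1s1 in mural cells (245), and C4b (680), Lcn2 (490) and C3 (205) in the stroma.

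Transcripts of stromal genes were also counted in the classes outside the stroma and set a floor there, called free RNA here. Whether they were free in the suspension or came from doublets was not tested. For 7 genes of the stroma used as a gauge, the endothelial level was between 21.2% and 39.7% of the stromal level (3 d), between 16.3% and 24.0% (3 w), 21.9% and 28.0% (16 w), 14.9% and 22.9% (78 w) or 22.9% and 32.5% (injured). Prg4, among these genes, is also a marker of the synovial lining, where it stood at 707% (78 w) to 2371% (3 w) of its stromal level. It set the top of the gauge at 3 d and 78 w, where the next genes were Comp at 26.5% and Fmod at 20.7%. C3 in endothelial cells was at 23.9% of its stromal level at 3 w, 15.0% at 16 w and 12.8% in the injured library, while at 78 w it stood at 51.3 CPM against 205 in the stroma, just above the gauge. C4b was at 17.8%, 28.9%, 22.4% and 20.3% from 3 w to the injured library, just above the gauge at 16 w. At 78 w it was within the gauge only through Prg4, and that value is left unread. The other values within the gauge or under it are not read as endothelial expression. Lcn2 in endothelial cells reached 68.4% of its stromal level at 3 w, 40.0% at 16 w, 27.2% at 78 w and 54.3% in the injured library, above the gauge in each case. In thinned endothelial cells 4.45% (3.09–6.20) held Lcn2 at 3 w, against 7.47% of stromal cells. Whether endothelial cells transcribe Lcn2 was not tested.

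Within the stroma, Lcn2 and the complement genes were highest in different clusters from 3 w on, though counted in all 3. Lcn2 was highest in chondrogenic-like cluster 1 in every library but that of 3 d, at 189 CPM (185–192) at 3 w, 252 (248–256) at 16 w, 638 (632–644) at 78 w and 83.1 (78.9–87.4) in the injured library. In tendon-like cluster 2 it stood at 50.2, 59.1, 150 and 21.3 CPM and in adventitial-type-like cluster 3 at 12.4, 27.2, 45.4 and 4.75 CPM. The order 1, 2, 3 held in those 4 libraries with no overlap of intervals, while at 3 d the 3 clusters overlapped at 0.145 to 0.353 CPM. Lcn2, which the clustering did not use, was also the first of the 10 leading genes of cluster 1. These were ranked on all libraries pooled. Cells of 3 d, where Lcn2 was scarcely detected, were 1989 of 21591 in cluster 1, 4420 of 12546 in cluster 2 and 4329 of 7388 in cluster 3. The rank therefore also carries the age of the cells and is a description.

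C3 was highest in cluster 3 in every library, with overlapping intervals at 3 d. There it stood at 0.427 CPM (0.261–0.660) at 3 d, 115 (108–123) at 3 w, 721 (699–743) at 16 w, 950 (930–971) at 78 w and 61.4 (53.1–70.7) in the injured library. In cluster 2 it stood at 0.252, 8.36, 58.5, 181 and 19.3 CPM. In cluster 1 no UMI was found at 3 d, with 8.17 CPM at 3 w, 26.0 at 16 w, 108 (106–111) at 78 w and 23.5 (21.3–25.9) in the injured library. Cluster 2 was above cluster 1 at 16 w and 78 w, while the pair overlapped at 3 w and in the injured library. At 78 w 49.1% (45.8–52.4) of thinned cells of cluster 3 held a C3 UMI, against 8.97% in cluster 1. Since cluster 1 was the largest, it still held 7058 of the 18642 stromal C3 UMIs at 78 w, and cluster 3 held 8617.

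Serping1, C1s1, C1ra and Cfb were also highest in cluster 3 in every library. Serping1 there stood at 122 CPM at 3 d, 1308 at 3 w, 2362 at 16 w, 2388 at 78 w and 456 in the injured library, and in cluster 1 at 17.5, 125, 112, 73.8 and 74.4 CPM. C1s1 in cluster 3 stood at 6.05, 64.3, 179, 284 and 37.1 CPM, and in cluster 1 at 0.797, 1.95, 2.73, 4.67 and 3.09. From 3 w to 78 w the C1 inhibitor transcript was lower in cluster 1 and higher in cluster 3. At 78 w the endothelial class held Serping1 at 33.7%, C1s1 at 32.9% and C1ra at 31.0% of the pooled stromal level. Each of these was above the level in cluster 1. The part of free RNA in the cluster 1 levels and ratios of these genes was not tested. C4b was the most even of the 8 at 78 w, at 578 CPM in cluster 1, 873 in cluster 2 and 1070 in cluster 3, and its clusters 2 and 3 overlapped at 3 d. Cfb, by contrast, stood at 26.5 CPM in cluster 3 at 78 w, 2.13 in cluster 2 and 0.306 in cluster 1.

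**Figure D3:**
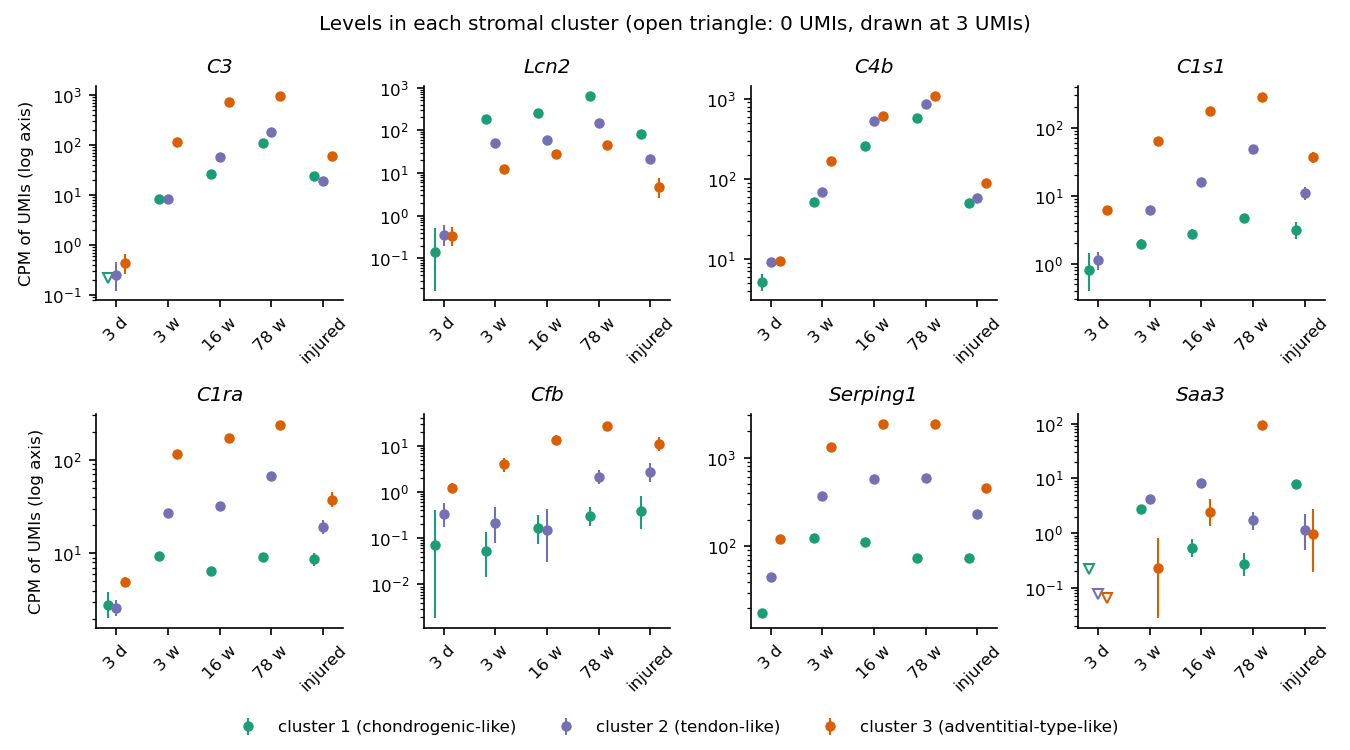
CPM of UMIs (log axis) of each gene in stromal clusters 1, 2 and 3 in each library, with 95% counting intervals and an open triangle at 3 UMIs where none was found. Lcn2 is highest in cluster 1 from 3 w on, at 638 CPM at 78 w, while C3 (950), Serping1 (2388) and C1s1 (284) are highest in cluster 3.

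A finer division at a resolution of 0.5 split the Lcn2 signal further. Its level at 78 w was 1407 CPM in a subcluster led by Col2a1, Ibsp and Chil1 and 993 CPM in another, of which it was the leading gene, and at most 306 CPM in the other stromal subclusters. C3 at 78 w was highest in the subcluster led by Pi16 and Clec3b, at 968 CPM. A small subcluster led by interferon-responsive genes such as Ifit1 and Rsad2, with 10 cells at 78 w, held C3 at 630 CPM and Lcn2 at 12.4 CPM. Lcn2 and C3 were therefore highest in different subclusters too.

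The transcripts were next compared cell by cell in thinned cells, so that depth did not decide. Among the 511 cells of cluster 1 with C3 at 78 w, 50.3% (45.9–54.7) also held Lcn2, against 21.6% (20.5–22.8) of those without C3. At 16 w the shares were 21.3% (14.0–30.2) and 10.8% (9.92–11.7). In cluster 1, Lcn2 and C3 thus occurred in the same cells more often than their separate shares would give, and in cluster 3 they did not: 1.83% (0.794–3.58) of 437 cells with C3 held Lcn2 at 78 w, against 3.53% (2.03–5.67) of those without it. The part of free RNA in these low cluster 3 shares was not tested. C4b was found more often beside C3 in all 3 clusters at 78 w, in 47.6% against 31.1% in cluster 1, 56.2% against 42.6% in cluster 2 and 65.7% (61.0–70.1) against 38.2% (33.7–42.8) in cluster 3. C1s1 in cluster 3 was found in 32.5% (28.1–37.1) of cells with C3 and 17.2% of those without. Serping1 in cluster 2 was found in 15.4% (9.90–22.4) of cells with Lcn2 and 36.0% (33.6–38.4) of those without. Cells of a library are not replicates, and a cluster can itself hold states, so these shares describe the 16 w and 78 w libraries.

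**Figure D4:**
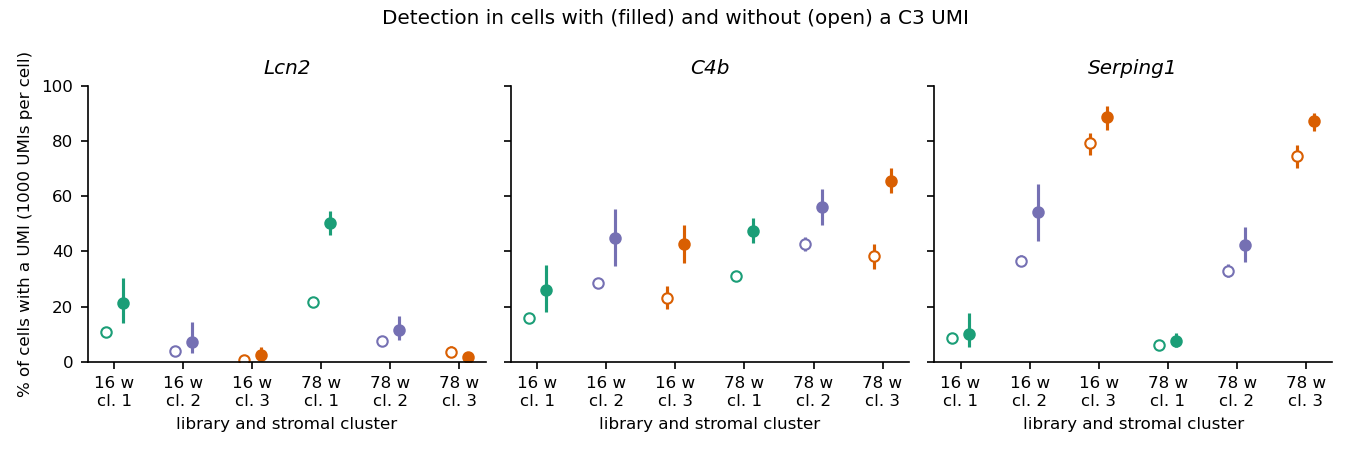
Share of thinned cells (vertical axis, percent) with a UMI of Lcn2, C4b or Serping1 among cells with C3 (filled) and without C3 (open), for stromal clusters 1 to 3 (cl.) of the 16 w and 78 w libraries, with 95% Clopper-Pearson intervals. In cluster 1 at 78 w the Lcn2 share is 50.3% beside C3 and 21.6% without it, and in cluster 3 the shares are 1.83% and 3.53%.

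Between the 3 d and 78 w stroma, the contrast on which Lcn2 and C3 were picked, all 8 genes were at least 2-fold higher at 78 w, where 15.1% of 15372 genes compared were, and 0 were 2-fold lower, where 22.9% of genes were. The ratio was 1536 (1088–2246) for Lcn2, 686 (480–1017) for C3, 77.5 (72.5–82.9) for C4b, 12.0 (10.7–13.5) for C1s1, 11.3 (10.2–12.6) for C1ra, 5.16 (5.04–5.29) for Serping1 and 4.59 (3.53–6.03) for Cfb. Saa3 was at least 333-fold higher, taking 3 UMIs for the 0 found, and at least 157-fold without the richest cell of each library. With clusters made without integration, a cluster whose leading genes included Prg4, C3 and Pi16 was named synovial lining and left the stroma. It held 0 cells at 3 d, 101 at 3 w, 1494 at 16 w, 2164 at 78 w and 44 in the injured library, so the stromas compared are then unlike, and 5 of the 8 were then higher at 78 w and 1, Cfb, lower. The width of the Lcn2 and C3 intervals comes from the 32 and 30 UMIs at 3 d. Within clusters, C3 was 2224-fold (1439–3644) higher in cluster 3, 716-fold (389–1494) in cluster 2 and at least 497-fold in cluster 1, and C4b was 113-fold, 95.1-fold and 112-fold higher. The ratios were 47.0 in cluster 3 and 5.86 in cluster 1 for C1s1, 47.2 and 3.20 for C1ra, and 19.6 and 4.21 for Serping1, so that the pooled ratios of these 3 genes lay between those of clusters 1 and 3. Saa3 in cluster 1 was at least 1.27-fold higher, from 18 against 0 UMIs. A ratio of 4401 for Lcn2 in cluster 1 rests on 2 UMIs at 3 d, and its interval is 1218 to 36339. Ratios within clusters can still carry a change in cell mixture.

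The steps between neighbouring stages differed from gene to gene. From 3 d to 3 w, 7 of the 8 genes were at least 2-fold higher, beside 16.9% of all genes, and 0 lower, beside 21.0%. The ratios ran from 440 (311–643) for Lcn2 and 55.6 (38.8–82.6) for C3 to 2.34 (2.06–2.66) for C1s1, while Cfb was 1.78-fold (1.21–2.64) lower at 3 w. That Cfb value is for the pooled stroma. In cluster 3 Cfb was 3.24-fold (2.06–5.02) higher at 3 w. Clusters 1 and 2 held few Cfb UMIs, 4 against 1 and 6 against 13. From 3 w to 16 w, 4 of 8 were at least 2-fold higher, beside 7.98% of all genes, and 0 lower, beside 7.96%: C4b by 5.45-fold (5.32–5.60), C3 by 5.03-fold (4.78–5.30), Cfb by 2.79-fold (1.93–4.08) and C1s1 by 2.36-fold (2.17–2.57). Lcn2 (1.33-fold higher), Serping1 (1.40-fold higher) and C1ra (1.11-fold higher) stayed under 2-fold in that interval. From 16 w to 78 w, 5 of 8 were at least 2-fold higher, beside 3.69% of all genes, and 0 lower, beside 3.98%: Saa3 by 3.83-fold (3.29–4.48), Cfb by 2.92-fold (2.30–3.75), Lcn2 by 2.62-fold (2.57–2.67), C3 by 2.45-fold (2.38–2.52) and C1s1 by 2.18-fold (2.05–2.31). C4b was 1.92-fold higher and Serping1 1.02-fold (1.01–1.04). The Saa3 ratio rests on 28 cells against 29, with 1 cell holding 477 UMIs, and it was 0.514 in cluster 1, 0.209 in cluster 2 and 38.6 in cluster 3. These steps share libraries with each other and with the contrast that chose Lcn2 and C3, and each is 1 library against 1 library.

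Within clusters, the ratio of 78 w to 16 w was smallest in cluster 3 for both C3 and Lcn2. C3 was 4.15-fold (3.92–4.40) higher in cluster 1, 3.09-fold (2.88–3.30) in cluster 2 and 1.32-fold (1.27–1.37) in cluster 3, where it was already at 721 CPM at 16 w. Lcn2 was 2.53-fold higher in cluster 1, 2.54-fold in cluster 2 and 1.67-fold (1.39–2.03) in cluster 3. The cluster with the most C3 at 16 w thus had the smallest ratio, and 3 of 7 genes compared in cluster 1 (C3, Lcn2 and C4b) were at least 2-fold higher there, beside 2.55% of all genes. In cluster 2, 5 of 8 were (C3, Lcn2, C1s1, C1ra and Cfb, the last from 35 against 3 UMIs), beside 4.39%. In cluster 3 only Saa3 was, 1 of 8, beside 3.45%, with 7 cells holding its 858 UMIs and 1 of these 477.

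**Figure D5:**
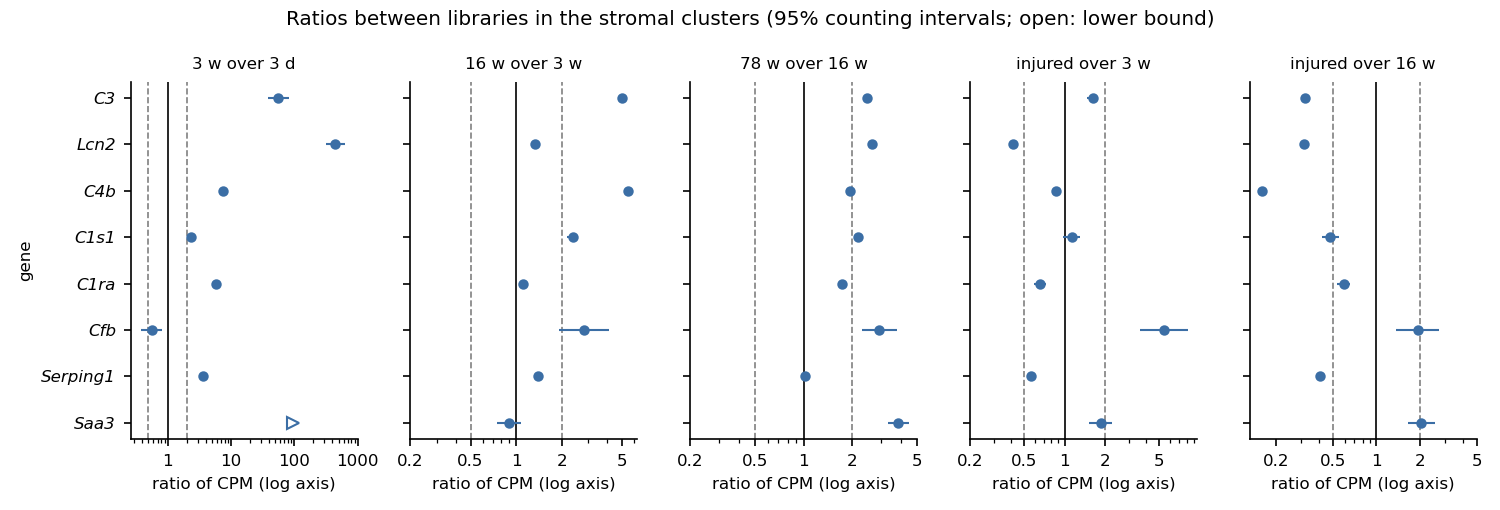
Ratio of stromal CPM between pairs of libraries (log axis, 1 pair a panel) for each gene, with 95% counting intervals, dashed lines at 2-fold and an open triangle for a lower bound. Values right of 1 are higher in the library named first. C4b is farthest to the left in the panel of injured over 16 w, at 0.159.

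In the injured stroma most of these genes were closer to the 3 w than to the 16 w library. Lcn2, C4b, C1ra and Serping1 nevertheless lay below both. The ratio of injured to 3 w was 0.866 for C4b, 0.658 for C1ra and 0.563 for Serping1. Against 3 w, 1 of 8 was at least 2-fold higher, beside 10.6% of all genes, and 1 at least 2-fold lower, beside 16.9%: Cfb was 5.40-fold (3.61–8.13) higher, from 60 against 45 UMIs, and Lcn2 2.39-fold (2.27–2.51) lower. C3 was 1.61-fold (1.47–1.75) higher and C1s1 1.12-fold (0.973–1.30). The direction of both varied with the cluster. The C3 ratio of injured to 3 w was 2.88 (2.53–3.26) in cluster 1, 2.31 (1.85–2.87) in cluster 2 and 0.533 (0.455–0.622) in cluster 3. The C1s1 ratio was 1.59, 1.78 and 0.576 in the same order. Against 16 w, 5 of 8 were at least 2-fold lower, beside 15.1% of all genes, and 1 higher, beside 10.9%. C4b was 6.30-fold (5.98–6.63) lower, Lcn2 3.18-fold (3.02–3.35), C3 3.13-fold (2.90–3.38), Serping1 2.48-fold (2.41–2.56) and C1s1 2.10-fold (1.84–2.41), while Saa3 was 2.06-fold (1.66–2.55) higher from 149 against 208 UMIs. With the 3 clusters given equal weight that Saa3 ratio was 0.885. It was 14.5 in cluster 1, from 138 against 29 UMIs, but 0.141 in cluster 2 and 0.387 in cluster 3. The pooled Saa3 UMIs came from 35 injured and 29 16 w cells, and 1 cell at 16 w held 83 of them. The median of all genes compared was itself shifted by -0.22 on the log2 scale. Age, sex, depth and injury all differ between these libraries and cannot be told apart.

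Between injured and 16 w discs, the cluster with the most genes lower was cluster 3, where 7 of the 8 were at least 2-fold lower, beside 16.8% of all genes. C3 was 11.7-fold lower there, C4b 7.00-fold, Serping1 5.17-fold, C1s1 4.83-fold and C1ra 4.56-fold, and Saa3 rested on 3 against 14 UMIs. In cluster 1 only Lcn2 (3.03-fold) and C4b (5.20-fold) of 7 genes were, beside 16.7%, and C3 stood at a ratio of 0.902 (0.807–1.01). In cluster 2, 5 of 8 genes were at least 2-fold lower, beside 13.8%, with C4b 9.20-fold and C3 3.03-fold lower. The size of the C3 ratio thus varied with the cluster from near 1 to beyond 10. C4b was at least 5-fold lower in each of them. Against 3 w, 3 of 8 genes in cluster 3 were at least 2-fold lower (Lcn2, C1ra and Serping1), beside 19.8% of all genes. There 2 were higher (Cfb and Saa3), beside 9.84%. In cluster 1, 1 of 7 was lower and 2 higher, beside 16.4% and 9.38%. In cluster 2, 2 of 8 were lower and 2 higher, beside 21.4% and 8.09%.

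Other complement genes, from lists drawn up with earlier results of these data known, did not all show the order of the 8. Leaving the members out, 3 of 10 classical and lectin pathway genes compared were at least 2-fold higher in the 78 w than in the 3 d stroma and 1 lower, beside 15.1% and 22.9% of all genes, and their median ratio was 0.652 against 0.879 for all genes. Masp1, a protease of the lectin pathway, stood at 0.160 CPM at 3 d and 1.48 at 78 w, C2 at 1.17 and 2.98 CPM, and the scavenger receptor Colec12 at 100 and 294 CPM. The recognition molecule C1q was counted mainly in macrophages. C1qa, C1qb and C1qc averaged 2911, 2908 and 2280 CPM in macrophages over the 4 untreated libraries and at most 3.64 CPM in the stroma of any of them, and stood at 11.2, 18.1 and 12.1 CPM in the injured stroma.

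Of the terminal components 2 had enough UMIs to compare. C7 had 0 UMIs in the stroma at 3 d and 1.46 CPM at 78 w, at least 48.9-fold higher, and C8g stood at 1.76 and 0.507 CPM. Of the alternative pathway, Cfd, the protease that activates factor B and a marker of fat cells, stood at 21.3 CPM in the 16 w stroma and at no more than 0.110 in the other libraries. Cfp, encoding properdin, which steadies the C3-cleaving enzyme, stood at 1.51 CPM at 3 d and 1.06 at 78 w. Among regulators 5 of 8 were at least 2-fold higher at 78 w than at 3 d and 1 lower, beside 15.1% and 22.9% of all genes, with a median ratio of 5.03. Clu, encoding clusterin, which blocks the terminal complex, stood at 27.0 CPM at 3 d, 2701 at 3 w, 6398 at 16 w, 7037 at 78 w and 4092 in the injured library. Cfi, a protease that inactivates C3b, had 4 UMIs in the stroma of all libraries together. Genes with a 78 w to 3 d ratio above 200 thus included C3 and the regulator Clu.

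Among receptors 1 of 8 was at least 2-fold higher at 78 w than at 3 d and 1 lower, beside 15.1% and 22.9% of all genes. Their median ratio was 0.719 against 0.879 for all genes. C3ar1, the receptor of the C3a fragment, stood at 0.439 CPM at 3 d, 0.308 at 78 w and 1.97 in the injured stroma, and C5ar1 at 0.619, 0.352 and 1.72. Their highest class was the macrophages. In the injured stroma 7 of 8 receptors were at least 2-fold higher than at 16 w, beside 10.9% of all genes, while macrophage markers there were higher as well: Lyz2 stood at 58.2 CPM against 4.95 at 16 w and Fcer1g at 12.1 against 0.924. The part of macrophage RNA in these receptor values was not tested.

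Acute-phase genes and genes known to respond to NF-kB or IL-17 were considered beside Lcn2 and Saa3. Leaving those out, 13 of 21 compared were at least 2-fold higher in the 78 w than in the 3 d stroma and 1 lower, beside 15.1% and 22.9% of all genes, with a median ratio of 3.71 against 0.879 for all genes. Cp, encoding the ferroxidase ceruloplasmin, stood at 2.56 CPM at 3 d, 107 at 3 w, 170 at 16 w, 227 at 78 w and 71.3 in the injured library, and Socs3, encoding an inhibitor of cytokine signalling, at 95.5, 566, 648, 354 and 145. Steap4, a metal reductase, stood at 2.41, 16.1, 21.8, 20.1 and 3.33. Saa1 and Saa2, the relatives of Saa3, were highest at 3 w, at 10.9 and 7.92 CPM, and stood at 2.08 and 0.187 CPM at 78 w. Against 3 w, 15 of the 21 were at least 2-fold lower in the injured stroma and 0 higher, beside 16.9% and 10.6% of all genes, and against 16 w 12 were lower and 0 higher, beside 15.1% and 10.9%. Nfkbia, encoding an inhibitor of NF-kB, stood at 1010 CPM at 3 w, 2110 at 16 w and 800 in the injured library, and Hp, encoding haptoglobin, at 0.106, 1.47 and 0.0359. At 78 w over 16 w, where Lcn2 was 2.62-fold higher, 4 of the 21 were higher and 1 lower, beside 3.69% and 3.98%.

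Of the genes linked to lipocalin 2 or to iron handling, 3 of 7 were at least 2-fold higher at 78 w than at 3 d and 2 lower. The shares of all genes were 15.1% and 22.9%, and the median ratio of the 7 was 1.95. Slc22a17, described as a receptor of lipocalin 2, stood at 36.3 CPM at 3 d and at 11.4 to 14.2 in the other libraries. Fth1, the ferritin heavy chain, stood at 964 CPM at 3 d, 9013 at 3 w, 8639 at 16 w, 14382 at 78 w and 9916 in the injured library. Tfrc, the transferrin receptor, stood at 8.97, 6.35, 27.6, 23.1 and 9.47. These genes had no common order over the libraries.

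Lcn2 and Saa3 are also made by neutrophils and macrophages, so markers of other cells were read in the stroma. The 9 neutrophil markers summed to 2.27 CPM at 3 d, 3.04 at 3 w, 7.69 at 16 w, 3.39 at 78 w and 1.51 in the injured library, and S100a9 was at 0 at 3 w and in the injured library and at 0.209 CPM at 78 w, where Lcn2 stood at 490. The 9 monocyte and macrophage markers summed to 22.0, 45.2, 42.4, 121 and 111 CPM. At 78 w 99.3 of these came from Cd14 alone, which stood at 1.34 CPM at 3 d, while Tyrobp was at 0.661 and Adgre1 at 0.198. The 6 epithelial markers summed to 0.628 to 4.42 CPM, with Krt5 at 0 in every library. Erythroid markers summed to 745 CPM at 3 d, 3.96 at 3 w, 33.0 at 16 w, 9.67 at 78 w and 205 in the injured library. The part of red cell RNA in the low levels at 3 d was not tested.

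Genes whose pattern was most like those of 3 members were sought over 25 points, the 5 libraries by 5 classes, as Pearson's r of log2(CPM + 5) among 16017 genes. For Lcn2 these were Serpina3n (0.876), Clec3a (0.875), Nfatc2 (0.855), Slc1a1 (0.844) and Nfatc1 (0.842). For C3 they were Ptger2 (0.875), Cytl1 (0.867), Serpina3n (0.866), Kcnq5 (0.865) and Tnfrsf11b (0.852). For Saa3 the values were lower, with Lgals2 (0.708), Slc39a8 (0.696), Slc17a8 (0.686), Mmp13 (0.686) and Gm11681 (0.679). Serpina3n, which encodes a secreted protease inhibitor of the acute phase, stood on both the Lcn2 and the C3 list, at 5.44 CPM in the stroma at 3 d, 70.7 at 3 w, 78.9 at 16 w, 165 at 78 w and 50.8 in the injured library. Among the members themselves r was 0.907 for C3 with C4b, 0.825 for C3 with Lcn2 and 0.845 for C1s1 with C1ra, and it was 0.295 for C3 with C1s1. Points of the same library share depth and free RNA, so these r are descriptions.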

How the data were processed

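Transcripts were counted in 5 single-cell libraries of mouse TMJ disc, 1 per condition. The authors released cells with Pronase, then Collagenase P, prepared droplet libraries of transcript 3′ ends (10x Genomics) and deposited UMI counts per gene and barcode of barcodes called as cells, without normalization. The submitters' processing notes name Cell Ranger 3.1 and mm10, and the file headers name Cell Ranger 4.0.0. From these deposited counts, those barcodes were retained that held over 200 UMIs and no more than 30% mitochondrial UMIs, and cells were clustered in Seurat 5.3.0 (R 4.3.3) after integration over 30 dimensions, at a resolution of 0.2, on 1952 variable features from which 48 complement, acute-phase and related genes had been left out. The rule that names a cluster from listed markers was written once the clusters were known, and 2 clusters stayed unnamed. A stromal cluster needed at least 3 markers raised 2-fold over the 25th percentile of other clusters. For the other classes the 3 markers were raised over the median of other clusters. Their mean log2 fold had to be at least 3, with a log2 margin of 1.5 over the next class and an own marker among the 10 leading genes. No doublet caller was run, and an alternative leaves out doublet-like cells.

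UMIs were summed over the cells of a class and expressed as CPM with exact Poisson 95% intervals, ratios with exact 95% intervals and shares with Clopper-Pearson intervals, all from scipy 1.17.1, which leave out any spread between animals. A gene was compared between libraries when it had at least 50 UMIs over the 5 libraries, and called at 2-fold, and all 8 members passed in the stroma. A count of 0 was taken as 3 UMIs and the ratio given as a lower bound. With 1 library per condition no test, p-value or standard error was possible.

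The members and lists were chosen with earlier results of these data known. Genes named are all members, listed pathway partners, and from each list those of highest stromal CPM or largest 78 w to 3 d ratio among genes with at least 50 UMIs. Markers of other cells were named after their values had been seen. Likeness was ranked by Pearson's r of log2(CPM + 5). The step that computes ratios was checked on simulated data. Of 27998 gene identifiers, 98.7% were found in the annotation (GENCODE, GRCm38). The value of 1 listed gene is not reported here.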

Additional observations from a re-analysis of the deposited data

Results flagged for a closer look

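Serping1, the gene of C1 inhibitor, had opposite directions in 2 classes of cells when the injured library was set beside the 16 w library. In the macrophage class its ratio was 2.27, from 93 UMIs in the injured and 40 in the 16 w library. The 16 w macrophage level was 8.27% of the stromal level, under the 10.8% to 28.0% of 7 stromal genes used as a gauge of free RNA. It is not read as macrophage expression. The injured level was 46.6%, above the 22.2% to 29.5% of that gauge. In the stroma the ratio was 0.403, from 4354 against 31040 UMIs, and in the synovial lining it was 0.356, from 293 against 1486 UMIs. C3 and C1s1 were also at least 2-fold higher in the injured macrophage class, as were 9.09% of all genes, with stromal ratios of 0.319 and 0.476. Both macrophage ratios rest on fewer UMIs than that of Serping1, and that of C1s1 on very few. The 16 w macrophage levels of C3 and C1s1, at 9.58% and 8.62% of the stromal level, were also under the gauge. The difference between the classes was not tested, since each class has 1 library per condition.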

How the results depend on the processing

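Ratios of the 8 genes between stromal libraries were recomputed under 10 alternatives, and counts of genes called also at 1.5-fold and 3-fold. Of 48 ratios, 48 kept their side of 2-fold with a stricter filter on cells or at a resolution of 0.5, 45 without doublet-like cells, 45 in thinned cells, 43 when centred on the median of all genes, 41 in gated cells and 34 with clusters made without integration. Of 46 ratios, 44 did with the mean CPM of single cells and 39 with equal cluster weights, where 25 moved by over 1.5 times. Clustering without integration put a cluster whose leading genes included Prg4, C3 and Pi16 outside the stroma, with 1494 cells at 16 w and 2164 at 78 w but 0 at 3 d, so the stromas compared are unlike. Under it, 5 genes were higher and 1 lower at 78 w than at 3 d, 1 higher and 2 lower from 3 w to 16 w, 1 lower from 16 w to 78 w, and 3 higher and 2 lower in injured than in 16 w stroma, and the stroma was the highest class for 1 gene at 3 w, 1 at 16 w and 1 at 78 w. Also under it, ratios crossed 1 for Cfb (0.363 for 78 w over 3 d, 0.273 for 16 w over 3 w), C1s1 (0.512 for 16 w over 3 w, 2.39 for injured over 16 w), C1ra (0.420 for 16 w over 3 w), Saa3 (0.137 for 78 w over 16 w) and Serping1 (1.05 for injured over 16 w). Over all alternatives, further ratios reached the other side of 1. These were Cfb for 3 w over 3 d (up to 2.60) and C1ra for injured over 16 w (up to 1.605). Serping1 fell to 0.553 for 16 w over 3 w and 0.528 for 78 w over 16 w, and Saa3 rose to 3.43 for 16 w over 3 w. For injured over 3 w, C3 fell to 0.791, C1s1 fell to 0.704 and C4b rose to 1.04. With the 3 stromal clusters given equal weight, Saa3 was at 0.885 for injured over 16 w, 3 genes were higher from 16 w to 78 w, 3 lower in injured than in 3 w stroma and 0 higher than at 16 w. Injured over 16 w also had 0 genes higher without doublet-like cells, in cells gated on markers, with the mean CPM of single cells, in thinned cells and at 3-fold, and 2 when centred on the median of all genes or at 1.5-fold. Injured over 3 w had 2 higher in gated cells, 2 higher and 0 lower when centred, 3 higher and 3 lower at 1.5-fold and 0 lower at 3-fold. From 3 d to 3 w, 1 gene (Cfb) was lower in thinned cells and at 1.5-fold. At 3-fold, 2 genes were higher from 3 w to 16 w, 1 from 16 w to 78 w and 3 lower in injured than in 16 w stroma. The stroma was the highest class at 3 d for 0 genes by the mean CPM of single cells and for 2 in thinned cells. Beyond these cell counts, the cause was not tested. Leaving out the richest cell of each gene was chosen after seeing the data and moved Saa3 alone by over 1.5 times, from at least 333-fold to at least 157-fold for 78 w over 3 d. Saa3 over 3 d has no value for the mean CPM of single cells or with equal weights, since no UMI was found at 3 d. No paired analysis was possible because each condition has 1 library, and for the same reason no replicate could be left out. The low counts of Cfb and Saa3, and of Lcn2 and C3 at 3 d, limit the precision of their ratios.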
